A study of Mus musculus with 4 samples.

Results

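Endothelial cells line the blood and lymphatic vessels of a tumour. In the 4 single-cell RNA libraries analysed here they were the barcodes with UMIs of at least 3 of the 8 genes Pecam1, Cdh5, Kdr, Egfl7, Plvap, Emcn, Esam and Cldn5, no UMI of the leukocyte gene Ptprc, at most 2 UMIs of C1qa, C1qb and C1qc together and at most 2 of Krt8, Krt18 and Krt19 together. The cells were thus selected on their own UMI counts of these 15 genes, and those 15 genes are described without a test result. Those with enough counts stayed among the genes fitted below. They are in the counts over all genes at an unadjusted p, Cldn5 among the lower and Emcn among the higher. They are also in the counts and medians of any list that holds them, but no called gene of the full comparison is among them. A UMI (unique molecular identifier) counts 1 captured RNA molecule. The rule found 184 endothelial cells among 14298 kept barcodes, 25 and 12 in the TAK-981 tumours and 65 and 82 in the vehicle tumours. The tumours grew from KPC46, a mouse pancreatic ductal adenocarcinoma organoid line, in B6/129 F1J mice. TAK-981 (subasumstat), an inhibitor of the SUMO-activating enzyme, was given to 2 mice and the vehicle Cremophor to 2 mice, with 1 tumour library per mouse. Dose, schedule, sex and age are not given in the sources used here, and all 4 tumours come from this single organoid line, so the mice are repeats of 1 tumour line. The tumours were dissociated enzymatically, red cells were lysed, and dead cells were removed from samples of low viability, per the labels, which do not say which samples those were.

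SUMOylation joins the small protein SUMO to other proteins. The activating enzyme Sae1-Uba2 charges SUMO and hands it on for conjugation, and loss of this step is known to release type I interferon genes in several cell types. Tumour endothelium forms new sprouts led by tip cells in response to VEGF, carries blood through capillaries lined by flow-responsive cells, and presents peptides on MHC class I, which interferon raises. The comparison of TAK-981 with vehicle therefore asks how the vessel lining of the treated tumours differed in abundance and in RNA.

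Sequences are shown for the promoters of 4 genes whose endothelial RNA passed the test below. Each run covers 250 bases before to 50 after the gene's start, 5′ to 3′ on the gene's strand, from RefSeq on GRCm38.p6. In the first pair the capitals mark GAAANNGAAA, the core to which interferon regulatory factors bind, on either strand. Bst2 lies at chr8:71537423-71537722 on the minus strand and holds 2 overlapping matches over 16 bases, and H2-T23 lies at chr17:36032652-36032951 on the minus strand and holds 1 match.
Bst2: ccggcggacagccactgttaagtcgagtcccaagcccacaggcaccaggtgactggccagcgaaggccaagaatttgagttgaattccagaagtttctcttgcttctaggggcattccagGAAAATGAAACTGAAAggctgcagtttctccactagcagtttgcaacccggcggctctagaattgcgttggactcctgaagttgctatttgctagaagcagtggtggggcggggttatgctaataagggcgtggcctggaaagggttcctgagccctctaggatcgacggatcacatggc
H2-T23: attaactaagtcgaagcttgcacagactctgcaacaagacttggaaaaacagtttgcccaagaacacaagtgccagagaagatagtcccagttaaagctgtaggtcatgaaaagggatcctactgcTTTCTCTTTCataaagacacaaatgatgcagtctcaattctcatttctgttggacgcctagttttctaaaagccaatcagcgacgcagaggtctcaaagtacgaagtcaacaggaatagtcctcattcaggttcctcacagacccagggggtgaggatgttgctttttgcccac
Of the 6 interferon and MHC class I genes that rose (Irf7, Bst2, H2-K1, H2-Q4, H2-Q7 and H2-T23), all 6 were in the promoter table and these 2 held the motif in this window, as did 3.99% of 27025 genes and 3.44% of their 32851 promoters. In the second pair the capitals mark TGCACNC or TGCGCNC, the core of the element to which the metal-responsive factor binds, on either strand. Mt1 lies at chr8:94178839-94179138 on the plus strand with 3 matches, and Mt2 at chr8:94172368-94172667 on the plus strand with 4. Either core stood in 25.7% of all promoters of the same length, so the matches are common and are given as a description.
Mt1: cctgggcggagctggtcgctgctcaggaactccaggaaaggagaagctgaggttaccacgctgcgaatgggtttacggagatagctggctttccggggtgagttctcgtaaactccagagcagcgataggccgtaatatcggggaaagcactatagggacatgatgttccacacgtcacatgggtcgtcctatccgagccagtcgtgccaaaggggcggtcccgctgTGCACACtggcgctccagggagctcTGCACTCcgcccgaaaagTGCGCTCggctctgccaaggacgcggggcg
Mt2: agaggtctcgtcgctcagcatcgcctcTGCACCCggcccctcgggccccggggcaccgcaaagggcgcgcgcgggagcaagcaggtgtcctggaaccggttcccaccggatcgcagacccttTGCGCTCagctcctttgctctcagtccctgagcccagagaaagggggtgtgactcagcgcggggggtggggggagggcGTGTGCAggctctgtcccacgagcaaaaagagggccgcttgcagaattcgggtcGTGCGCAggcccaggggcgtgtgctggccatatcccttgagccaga

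The endothelial cells were few and their depth differed between the groups. Summed over the cells of a library they held 199891 and 88423 UMIs in the TAK-981 tumours, against 273304 and 300447 in the vehicle tumours. Their median depth was 5415 and 6173.5 UMIs per cell under TAK-981, against 3344 and 2826 in vehicle. The median mitochondrial share of their UMIs was 5.17 and 5.63% under TAK-981, against 3.73 and 3.36% in vehicle. Both depth and mitochondrial share were thus higher in each treated tumour, and their part in the results below was not tested beyond the fits with thinned counts and with at most 10% mitochondrial UMIs. Whole libraries held 26376608 and 63898758 UMIs under TAK-981, against 24411656 and 29041348 in vehicle. The deepest single cell supplied 14.7 and 17.2% of the endothelial UMIs in the TAK-981 libraries and 6.28 and 8.09% in the vehicle libraries. No batch is named in the labels, and one that followed the treatment cannot be told apart from it.

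The label endothelial was checked against genes that the rule did not use. Flt1, the decoy VEGF receptor, had a UMI in 33 of 37 TAK-981 and 122 of 147 vehicle endothelial cells. Cd34, a sialomucin of vessel lining, had one in 33 and 112, the TGF-beta coreceptor Eng in 32 and 105, and the angiopoietin receptor-like kinase Tie1 in 25 and 93. Flt1 reached 1355 and 1584 CPM, a gene's UMIs scaled to a common library total, in the TAK-981 endothelial sums and 1477 and 1972 CPM in vehicle, against 3.74 to 16.9 CPM in the other kept barcodes of the 4 libraries. Of the 8 rule genes Pecam1, the adhesion molecule CD31, which chose the cells and is given only as a description, stood at 1111 and 1244 CPM in TAK-981 and 1043 and 1065 CPM in vehicle cells, scaled to plain totals. Cldn5, a tight-junction claudin, was patchy, with a UMI in 48 and 50% of TAK-981 and 43.1 and 72% of vehicle cells.

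At the edge of the rule, 13 cells had exactly 3 of the 8 genes, 59 had 7 and 60 had all 8. Just outside it, 31 barcodes had 2 genes, with median depths of 28375 and 20698 UMIs in the TAK-981 libraries and 1255 and 3523 in the vehicle libraries. A further 40 barcodes with at least 3 genes were left out for Ptprc, C1q or keratin UMIs. Among kept barcodes the libraries shared 23 barcode sequences in pairs, none of them endothelial. RNA of fibroblasts or pericytes (more than 2 UMIs) was found in 8 endothelial cells, 2 and 2 under TAK-981 and 1 and 3 in vehicle. The lymphatic regulator Prox1 had UMIs in 5 cells, all from vehicle tumour 2 and all with the lymphatic receptor Lyve1.

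Endothelial cells made up 1.11% (95% exact binomial interval 0.719 to 1.63) and 0.376% (0.194 to 0.656) of kept barcodes in the TAK-981 tumours, against 1.42% (1.10 to 1.81) and 1.92% (1.53 to 2.37) in the vehicle tumours. Both TAK-981 shares lay below both vehicle shares. The means were 0.742% ± 0.518 under TAK-981 and 1.67% ± 0.352 in vehicle (SD, n = 2 each), a difference of -0.927 percentage points. The exact two-sided permutation p was 0.333, the smallest that 2 against 2 allows, so the design cannot call this difference. With at most 10% mitochondrial UMIs per barcode the groups overlapped, and the difference was -0.669 points (exact permutation p = 0.667). The share depends on all other cells captured, and intervals cover counting error only.

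**Figure D1:**
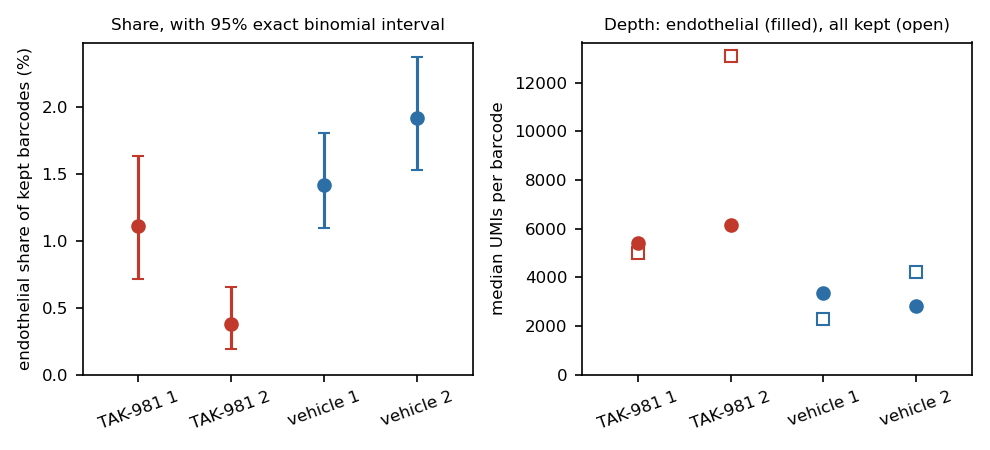
Left, the endothelial share of kept barcodes (%) in each library with its 95% exact binomial interval. Right, the median UMIs per barcode in endothelial cells (filled) and in all kept barcodes (open). The TAK-981 tumours had the lower shares, 1.11 and 0.376%, and the deeper endothelial cells.

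For RNA, UMI counts were summed over the endothelial cells of each library, and CPM is the count of a gene relative to the library's TMM-scaled endothelial total. Because levels are relative to that total, a lower level cannot be told apart from fewer cells of a subtype that carries the gene. Of 4038 genes with enough counts, 125 (3.1%) passed edgeR's quasi-likelihood test at a Benjamini-Hochberg adjusted p under 0.05 over all 4038. Under TAK-981, 19 rose (0.471%) and 106 fell (2.63%). At an unadjusted p under 0.05 the counts were 211 higher (5.23%) and 327 lower (8.1%), and the values of the groups did not overlap in 1810 genes (44.8%). Scaling by library totals alone moved the median log2 fold change of all genes to 0.23, from which 46 rose and 81 fell. Without TAK-981 tumour 1, the library with more endothelial cells, 8 rose and 5 fell, 3 and 3 of them shared with the full comparison.

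Among sprouting genes, Esm1 (endocan, a proteoglycan secreted by tip cells under VEGF signalling) rose and the other 17 tested genes of the tip-cell list did not pass. Esm1 reached 756 and 923 CPM in the TAK-981 tumours, against 151 and 148 CPM in the vehicle tumours. The groups lay far apart and each pair of libraries lay close together. The difference was 5.57-fold (log2 fold change 2.48 ± 0.31 SE, edgeR adjusted p = 0.00493) and passed in all 21 alternative settings in which Esm1 was tested (adjusted p 1.24e-08 to 0.0294), including each fit that left out 1 library. Esm1 lies at chr13:113209659-113218098 on the plus strand (mm10).

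Esm1 RNA was carried by 16 of 25 and 6 of 12 cells under TAK-981, against 13 of 65 and 16 of 82 in vehicle. With every cell reduced to 1000 UMIs, 27.3 and 41.7% of cells had an Esm1 UMI under TAK-981, against 10 and 7.89% in vehicle, so the order also held at equal depth; 3 TAK-981 and 11 vehicle cells were too shallow for this. A single cell gave 41.2 and 52.3% of the Esm1 UMIs in the TAK-981 libraries, against 24.3 and 16.7% in vehicle. No macrophage barcode had an Esm1 UMI in any library. At full depth, 11 of 22 Esm1 cells also carried Apln under TAK-981, against 20% of the other cells, and in vehicle 14 of 29 did, against 16.1% of the others. Cells with an Esm1 UMI carried Apln more often in both groups at full depth, whereas at 1000 UMIs per cell the shares were 9.09% against 26.1% under TAK-981, from 11 Esm1 cells, and 25% against 8.87% in vehicle, from 12.

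The other tip-cell genes did not move together. Apln, the secreted ligand apelin of tip cells, stood at 398 and 913 CPM under TAK-981, against 306 and 169 CPM in vehicle (log2 1.43 ± 0.42, adjusted p = 0.115). Trp53i11, with a log2 fold change of -1.24, did not pass either (adjusted p = 0.15). Of the 18 tested genes on this list, 9 had a log2 fold change above 0, against 49.8% of all genes, and the median was 0.03. Col4a1 and Col4a2, the basement-membrane collagens that sprouting cells also make, had 3214 and 3116 CPM under TAK-981 against 3881 and 5083 CPM in vehicle, and 1209 and 1217 CPM against 1877 and 3051 CPM. Neither collagen passed (adjusted p = 0.546 and 0.153), though DESeq2 called Col4a2 lower (adjusted p = 0.0303).

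None of the receptor genes through which VEGF and angiopoietins act passed the test. Of 10 tested VEGF receptors, coreceptors and ligands and 6 of the angiopoietin-TIE list, edgeR called 0 higher and 0 lower, with medians of 0.08 and -0.03. DESeq2 also called 0, and at an unadjusted p under 0.05 edgeR gave 0 higher and 2 lower on the first list and 0 and 1 on the second. Any gene of the selection rule on either list was left in these counts and medians. Flt1 gave a log2 fold change of -0.23 (adjusted p = 0.802). Flt4, VEGF receptor 3, had 32.1 and 62.9 CPM under TAK-981, against 126 and 218 CPM in vehicle. Its groups did not overlap, and it missed the threshold (log2 -2.00, adjusted p = 0.0532). Tie1 had 156 and 231 CPM under TAK-981 against 351 and 352 CPM in vehicle (log2 -0.91, adjusted p = 0.206). Tek, the angiopoietin receptor Tie2, had 114 and 83.9 CPM under TAK-981 against 93.9 and 91.4 CPM in vehicle.

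**Figure D2:**
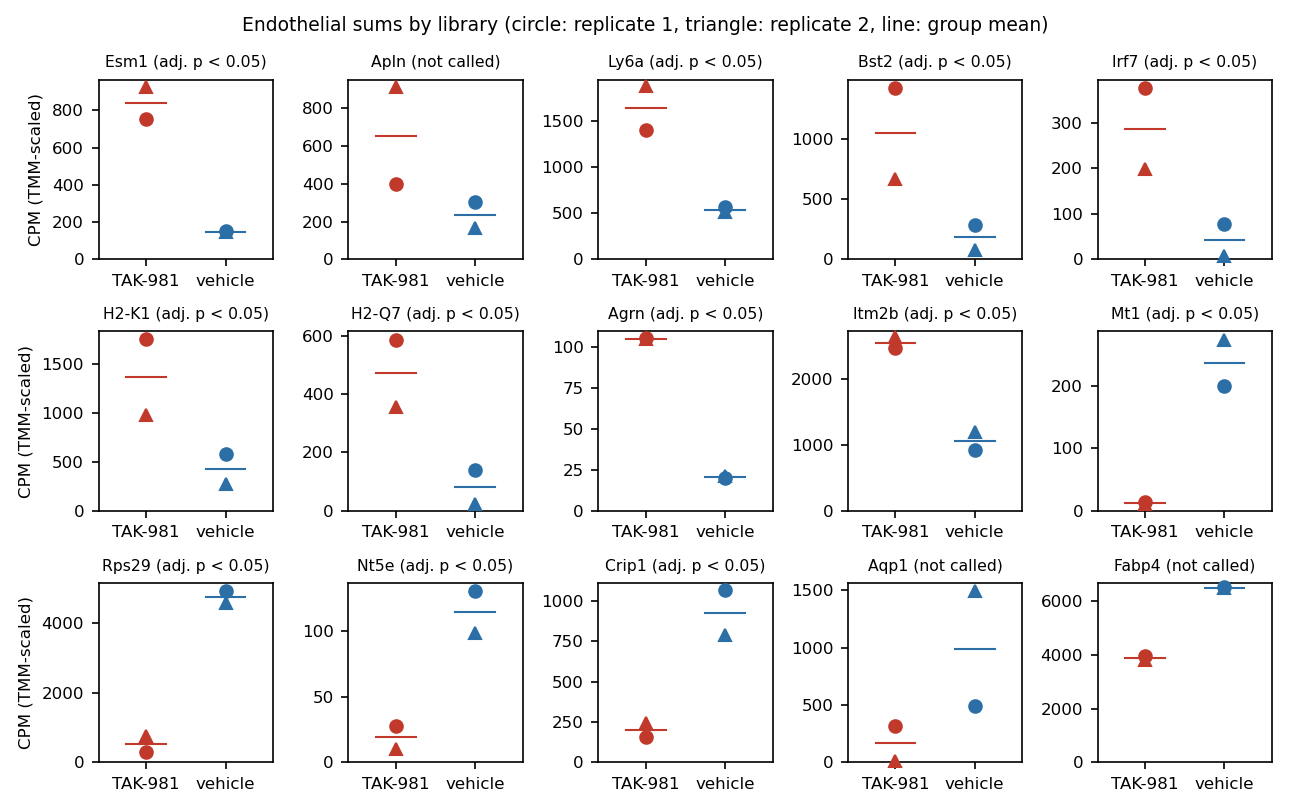
CPM of 15 genes in the endothelial sums, with 1 point per library (circle replicate 1, triangle replicate 2) and a line at each group mean, TAK-981 at the left. Esm1, Ly6a, Bst2 and Itm2b lie higher in both TAK-981 libraries and Mt1, Rps29, Nt5e and Crip1 lower, whereas the groups of Apln lie apart without passing the test.

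A few genes of antigen presentation and interferon rose in the endothelium of TAK-981 tumours. Of 16 tested MHC class I presentation genes 4 rose (H2-K1, H2-Q4, H2-Q7 and H2-T23), 0 fell and all 16 had a log2 fold change above 0, with a median of 1.46 against a median of -0.0016 over all genes. DESeq2 also called 4, with H2-D1 in place of H2-Q4. Of 25 tested type I interferon genes 2 rose (Irf7 and Bst2), 0 fell and 23 lay above 0, with a median of 0.76. Of 9 tested interferon-gamma genes 0 passed in edgeR or DESeq2 and 3 were higher at an unadjusted p under 0.05, with 8 above 0 and a median of 0.87. No MHC class II gene had enough counts to be tested.

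H2-K1, a classical class I heavy chain, had 1763 and 986 CPM under TAK-981, against 584 and 274 CPM in vehicle. It was higher in both treated tumours, by 3.25-fold (log2 1.70 ± 0.40, edgeR adjusted p = 0.045). The non-classical chain H2-T23 (Qa-1) had 256 and 105 CPM under TAK-981 against 36.7 and 28.1 CPM in vehicle, 5.93-fold higher (adjusted p = 0.017). H2-Q7 and H2-Q4 of the Qa-2 region rose by log2 2.59 ± 0.55 and 2.95 ± 0.56 (adjusted p = 0.027 and 0.017). These chains are near-identical copies, so their UMIs may have been divided among them or dropped, and the split between Q genes is uncertain. H2-D1, the other classical chain, had 2431 and 1332 CPM under TAK-981 against 820 and 517 CPM in vehicle (log2 1.51 ± 0.37, adjusted p = 0.051, and 0.00541 by DESeq2). The light chain B2m, with 3059 and 2318 CPM against 1689 and 731 CPM, did not pass (adjusted p = 0.184), nor did Psmb8 of the immunoproteasome (log2 1.72, adjusted p = 0.0797).

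Bst2 (tetherin, a membrane protein that holds back virions) reached 1424 and 671 CPM under TAK-981, against 290 and 80.8 CPM in vehicle. A Bst2 UMI was present in 25 of 25 and 10 of 12 treated cells, against 31 of 65 and 19 of 82 vehicle cells. At 1000 UMIs per cell the shares were 63.6 and 41.7% under TAK-981 and 20 and 6.58% in vehicle, so both treated tumours lay above both controls. The rise was 5.8-fold (log2 2.53 ± 0.52, adjusted p = 0.0227). Irf7, the transcription factor that amplifies type I interferon, had 375 and 199 CPM under TAK-981, against 77.5 and 7.03 CPM in vehicle, 7.26-fold higher (adjusted p = 0.035). In all 6 called interferon and class I genes vehicle tumour 1 was above vehicle tumour 2.

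The other 23 tested genes of the type I interferon list did not pass. Isg15, a ubiquitin-like modifier, had 206 and 168 CPM under TAK-981 against 192 and 17.6 CPM in vehicle (adjusted p = 0.629). Ifit3, an RNA-binding antiviral protein, had 50.4 and 52.5 CPM against 40.8 and 0 CPM (adjusted p = 0.574). Rsad2 (viperin) had 87 and 0 CPM under TAK-981 against 302 and 0 CPM in vehicle, where 62 of the 74 UMIs of vehicle tumour 1 came from 1 cell. Ifitm3, which blocks viral entry, had 2885 and 3095 CPM against 1885 and 1645 CPM (log2 0.76, adjusted p = 0.279). Of 10 tested receptor and JAK-STAT genes 0 passed in edgeR or DESeq2, 1 was higher and 1 lower at an unadjusted p under 0.05, and the median was 0.27.

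The interferon and class I calls did not pass in the fit without TAK-981 tumour 1, which leaves 1 treated library. This was not so for all of them in the fit without TAK-981 tumour 2. Without TAK-981 tumour 1, which had the higher level of Bst2, Irf7, H2-K1, H2-Q7 and H2-T23, the adjusted p was 0.17 for Bst2, 0.256 for Irf7, 0.329 for H2-K1, 0.189 for H2-Q7, 0.344 for H2-T23 and 0.0576 for H2-Q4. The log2 fold changes in that fit were still above 0, at 1.87, 2.28, 1.21, 2.16, 1.69 and 3.42 for the same genes. The 14 macrophage genes summed to 224 and 112 UMIs in the TAK-981 endothelial cells and to 285 and 249 in vehicle, mostly from Ctsb and Apoe, which other cells also express. The other 12 genes summed to 27 and 6 UMIs (135 and 67.9 CPM of plain totals) under TAK-981, with 5 and 9 of them at 0, and to 56 and 31 UMIs (205 and 103 CPM) in vehicle, with 3 and 1 at 0. Lymphocyte genes summed to 5.0 and 0 CPM under TAK-981 and to 3.66 and 6.66 CPM in vehicle. The part of other cells' RNA in the result was not tested.

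Ly6a (Sca-1, a surface protein of vessel lining and progenitors that interferon also raises) was called as well, though the naming rule did not list it. It had 1401 and 1878 CPM under TAK-981, against 571 and 510 CPM in vehicle, 3.02-fold higher with no overlap (log2 1.59 ± 0.30, adjusted p = 0.017). At 1000 UMIs per cell 54.5 and 66.7% of treated cells had a Ly6a UMI, against 30 and 34.2% of vehicle cells. Itm2b, an integral membrane protein, was 2.4-fold higher (2473 and 2644 CPM against 926 and 1202 CPM, adjusted p = 0.0466).

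**Figure D3:**
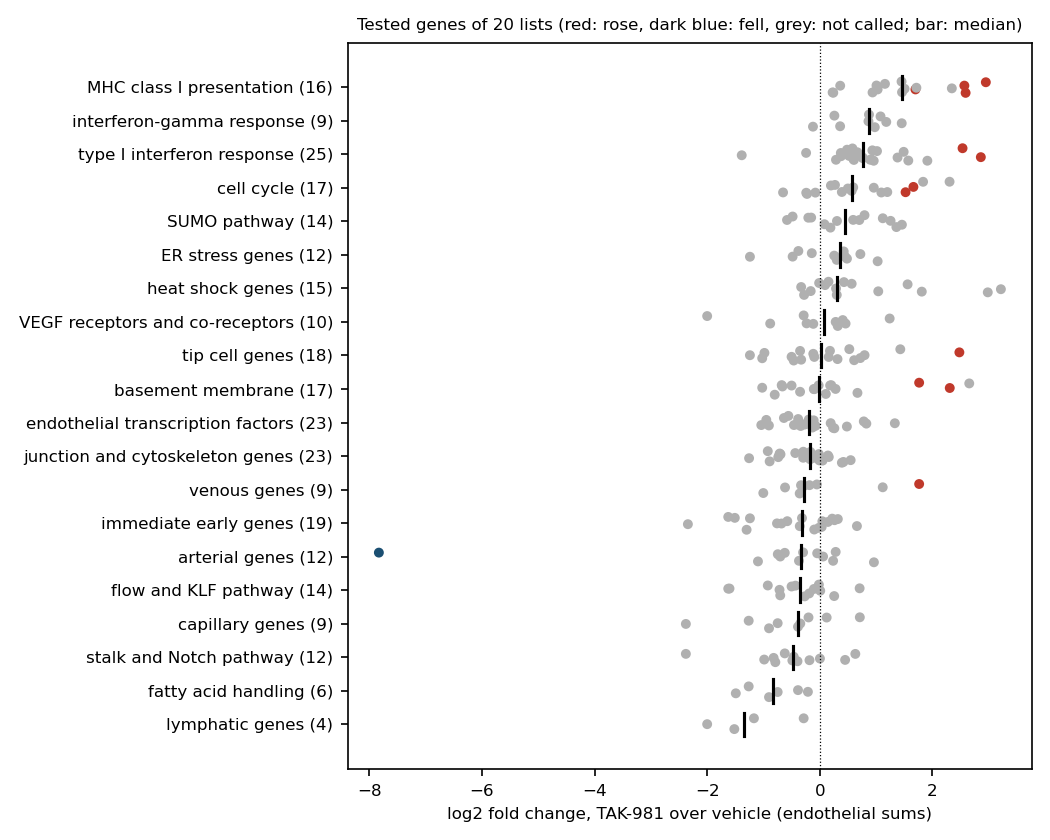
Log2 fold changes (TAK-981 over vehicle) of the tested genes of 20 lists in endothelial sums, with the number tested in brackets, a bar at each list's median and a dotted line at the median of all genes. All 16 class I genes lie to the right of 0 and 4 of them are red, whereas the capillary, Notch and lymphatic lists hold no called gene.

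In the vessel wall 2 genes of 17 tested basement-membrane genes rose. Agrn, the heparan sulfate proteoglycan agrin, had 105 and 105 CPM under TAK-981, against 20.4 and 21.1 CPM in vehicle. The groups were well apart, 4.95-fold (log2 2.31 ± 0.46, adjusted p = 0.021), on 23 and 10 UMIs against 5 and 6, and DESeq2 gave no adjusted p for Agrn. In fibroblasts the log2 fold change of Agrn was 0.35 and in macrophages -0.15, but the interaction did not pass (adjusted p = 0.834 and 0.552). Bgn (biglycan) had 375 and 189 CPM against 69.4 and 102 CPM (log2 1.76 ± 0.40, adjusted p = 0.0363), and lost the call without the 8 cells with fibroblast or pericyte RNA (adjusted p = 0.177) and in DESeq2 (adjusted p = 0.106). Fibroblast genes summed to 966 and 11.3 CPM in the TAK-981 endothelial cells against 32.9 and 116 CPM in vehicle, 97.9% of the first sum from 1 cell. Cfb, complement factor B, rose on few UMIs (91.6 and 42 CPM against 8.16 and 10.5 CPM, adjusted p = 0.0447), and DESeq2 gave it no adjusted p.

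Capillary and flow-responsive genes held no edgeR call. Aqp1, the water channel of continuous endothelium, had 321 and 10.5 CPM under TAK-981, against 494 and 1490 CPM in vehicle. A UMI was present in 11 of 25 and 1 of 12 treated cells, against 34 of 65 and 70 of 82 vehicle cells. At 1000 UMIs per cell the shares were 18.2 and 8.33% under TAK-981 and 36.7 and 60.5% in vehicle, so the groups did not overlap, yet the spread within each group was wide (log2 -2.38 ± 0.73, adjusted p = 0.136). Fabp4, the fatty acid binding protein of capillaries, had 3933 and 3787 CPM against 6521 and 6454 CPM (log2 -0.75, adjusted p = 0.331). Gpihbp1, which carries lipoprotein lipase to the lumen, had 888 and 546 CPM under TAK-981 against 665 and 2049 CPM in vehicle, with overlap. Of 9 tested capillary genes and 12 genes of the stalk and Notch list 0 passed in edgeR or DESeq2, with medians of -0.39 and -0.48. At an unadjusted p under 0.05 in edgeR, 3 genes of the first list and 1 of the second were lower and 0 higher. The 1 lower gene of the second list was Aqp1, which both lists hold.

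Flow factors did not pass in edgeR. Klf4, a shear-induced factor, had 114 and 283 CPM under TAK-981 against 514 and 626 CPM in vehicle (log2 -1.63, adjusted p = 0.051, and 0.026 by DESeq2). Klf2 had 375 and 619 CPM against 608 and 770 CPM. Fos, an immediate early gene that dissociation also induces, had 655 and 913 CPM against 1461 and 2359 CPM (log2 -1.30, adjusted p = 0.0692). Klf4 and Fos were below vehicle in both treated tumours, whereas the groups overlapped for Klf2. Of 14 tested flow genes, 23 endothelial transcription factors and 23 junction genes edgeR called 0. DESeq2 called Klf4 of the first list and Tmsb10 of the third lower. At an unadjusted p under 0.05 edgeR gave 0 higher and 3 lower, 1 and 2, and 0 and 3. Of 11 leukocyte-adhesion genes 0 passed at either threshold, and DESeq2 called 0 of them. The same holds for 16 BMP and TGF-beta genes, with a median of 0.08. Among 19 tested hypoxia and glycolysis genes edgeR and DESeq2 called 0, with 1 higher and 1 lower at an unadjusted p under 0.05.

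Among lower genes, Mgp, matrix Gla protein, which arterial endothelium makes against calcification, was listed at 0 and 0 CPM under TAK-981, against 97.9 and 169 CPM in vehicle. It was carried by 4 and 9 vehicle cells, and was at least 12.1-fold lower in treated cells, from a floor of 3 counts over the group (adjusted p = 0.00493). DESeq2 gave Mgp no adjusted p, and with cells of at least 2 endothelial genes the log2 fold change of Mgp was 1.66, in the other direction. Nts, the peptide neurotensin, had 0 and 0 CPM against 800 and 105 CPM, at least 37.9-fold lower (adjusted p = 0.0174), but 1 cell gave 78.6% of the Nts UMIs of vehicle tumour 1. Such rare-cell genes were seen in few vehicle cells, and only 37 treated cells were sampled.

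The metallothioneins, small metal-binding proteins, fell. Mt1 had 13.7 and 10.5 CPM under TAK-981, against 200 and 274 CPM in vehicle. The groups lay apart by 17.9-fold (log2 -4.16 ± 0.52, edgeR adjusted p = 0.00493), on 3 and 1 UMIs against 49 and 78. The principal transcripts of Mt1 and Mt2 are 549 and 511 nt long, within the class under 800 nt whose median is given below. Mt2 had 4.58 and 0 CPM against 69.4 and 73.8 CPM (log2 -4.26 ± 0.84, adjusted p = 0.0207). Mt1 also had log2 fold changes of -3.01 in fibroblasts, -2.32 in macrophages and -2.62 in epithelial barcodes, so lower values were measured outside the vessels too, and neither interaction passed for Mt1 (adjusted p = 1 against fibroblasts and 0.284 against macrophages).

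Il1b, the cytokine interleukin-1 beta, had 4.58 and 10.5 CPM under TAK-981, against 155 and 56.2 CPM in vehicle. It was lower in both treated tumours (log2 -3.90 ± 0.85, adjusted p = 0.0303). Neutrophil genes summed to 5.0 and 22.6 CPM in the TAK-981 endothelial cells against 234 and 130 CPM in vehicle, where 1 cell gave 78.1 and 89.7% of the sum. Il1b itself had 1 and 1 UMIs under TAK-981 and 38 and 16 in vehicle, from 8 and 3 cells. The part of neutrophil RNA in the Il1b result was not tested, and DESeq2 gave Il1b no adjusted p. Crip1, a small LIM protein, had 160 and 241 CPM against 1065 and 787 CPM (log2 -2.25 ± 0.34, adjusted p = 0.00522). Nt5e (CD73, which makes adenosine) had 27.5 and 10.5 CPM against 131 and 98.4 CPM (log2 -2.35 ± 0.53, adjusted p = 0.0347); Crip1 and Nt5e were chosen after their values were seen.

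Most of the 106 lower genes encoded ribosomal proteins (37) or nuclear subunits of the respiratory chain (22), groups formed after the values were seen. Of 84 tested ribosomal protein genes 0 rose, with a median log2 fold change of -1.27. Rps29 had 307 and 766 CPM under TAK-981, against 4921 and 4587 CPM in vehicle, and Rps28 had 238 and 556 CPM against 3313 and 3557 CPM. Both lay far below vehicle in each treated tumour (log2 -3.20 ± 0.43 and -3.17 ± 0.41). Of 74 tested respiratory-chain genes 22 fell and the median was -0.87, with Atp5k at 27.5 and 52.5 CPM against 379 and 243 CPM. Outside this group, Ndufb1-ps had 50.4 and 52.5 CPM against 547 and 295 CPM. Romo1, a small inner-membrane protein also outside it, had 18.3 and 42 CPM against 224 and 257 CPM. Of 13 mitochondrially encoded genes 2 fell (mt-Nd3 and mt-Nd4l) and the median was 0.03.

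These lower genes were short. Principal transcripts under 800 nt made up 5.13% of the genes tested, 54.7% of the 106 lower ones and 10.5% of the 19 higher ones. The median log2 fold change was -0.87 below 800 nt and 0.03 above it. Within the ribosomal proteins the median was -1.61 for 35 short and -0.74 for 49 longer transcripts, and within the respiratory chain -1.30 for 36 and -0.17 for 38. The ribosomal median was -1.04 in fibroblasts, -0.97 in macrophages and -1.42 in epithelial barcodes of the same libraries, below 0 in every class examined. With the sums thinned to the smallest total 75 of 1698 tested genes still fell, 72 of them shared with the 106. The cause of the trend with length was not tested.

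**Figure D4:**
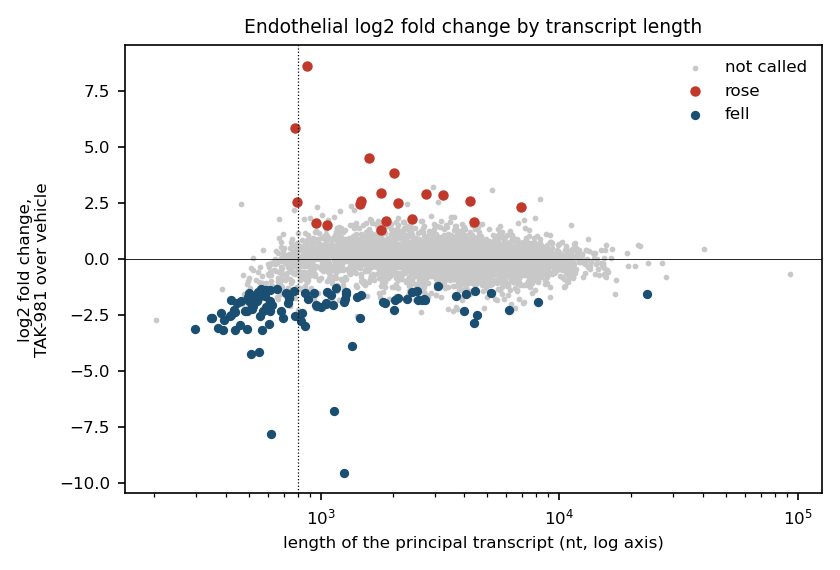
Log2 fold change (TAK-981 over vehicle) in endothelial sums against the length of the principal transcript in nt on a log axis, with 1 point per tested gene and a dotted line at 800 nt. The lower genes crowd at the left, where 58 of 106 lie below 800 nt, whereas 2 of the 19 higher genes do.

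The cell-cycle list had 2 higher genes of 17 tested. Cdk1, the mitotic kinase, had 151 and 136 CPM under TAK-981 against 53 and 38.7 CPM in vehicle (adjusted p = 0.0467), and Stmn1, which destabilises microtubules, 224 and 315 CPM against 106 and 77.3 CPM (adjusted p = 0.045). Cenpa, the centromeric histone, had 151 and 168 CPM against 40.8 and 17.6 CPM (log2 2.44 ± 0.46, adjusted p = 0.0163). A single cell gave 72.7 and 84.6% of the Cdk1 UMIs of the 2 TAK-981 libraries, 36.7 and 93.3% of those of Stmn1 and 42.4 and 87.5% of those of Cenpa. For each of the 3 genes its top cell thus gave most of the UMIs in TAK-981 tumour 2, and for Cdk1 alone in TAK-981 tumour 1. Whether the top cells of the 3 genes were the same cell was not examined. DESeq2 called 0 of the 17. The 17 genes had a median of 0.57, and 13 lay above 0. Of the UMIs of the whole list, tested or not, 1 cell gave 36.9 and 60.2% in the TAK-981 libraries. In the vehicle libraries it gave 14.3 and 24.8%.

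Other called genes are typical of other cells. Tagln, a smooth-muscle actin-binding protein, had 261 and 745 CPM under TAK-981 against 28.6 and 14.1 CPM in vehicle, and Acta2, smooth-muscle actin, 220 and 525 CPM against 12.2 and 35.2 CPM. A single cell gave 98.2 and 100% of the Tagln UMIs of the TAK-981 libraries and 100 and 100% of those of Acta2, and without the 8 cells with fibroblast or pericyte RNA both genes had too few counts to be tested. Pericyte genes summed to 1436 and 1696 CPM under TAK-981 against 187 and 702 CPM in vehicle. A single cell gave 88.9 and 80.7% of this sum in the TAK-981 libraries, against 9.80 and 28.4% in vehicle. Ctrb1, the acinar enzyme chymotrypsinogen, had 74 and 8 UMIs under TAK-981 and 0 and 0 in vehicle, at least 54.4-fold higher, and Reg3b, a secreted acinar stress protein, had 201 and 42 CPM against 4.08 and 0 CPM. Ctrb1 UMIs were also present in 40 to 44.6% of the fibroblasts, macrophages and epithelial barcodes of TAK-981 tumour 1 and in 32.4 to 36.2% of those of tumour 2, but in at most 3.23% of those in vehicle.

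Genes of the drug's own pathway did not pass. Sae1, a subunit of the activating enzyme, had 73.3 and 83.9 CPM under TAK-981 against 44.9 and 49.2 CPM in vehicle (log2 0.70, adjusted p = 0.536). Uba2, the subunit that forms the bond with SUMO and to which TAK-981 is directed, had 77.8 and 83.9 CPM against 81.6 and 49.2 CPM (log2 0.30, adjusted p = 0.822). Of the modifiers, Sumo2 had 604 and 378 CPM under TAK-981 against 286 and 292 CPM in vehicle (adjusted p = 0.279), and Sumo3 192 and 241 CPM against 89.8 and 87.9 CPM (adjusted p = 0.0945). Both lay higher in each treated tumour, neither passed, and RNA does not measure enzyme activity. Of 14 tested genes of the pathway edgeR and DESeq2 called 0 and 5 were higher at an unadjusted p under 0.05, and 10 had a log2 fold change above 0, with a median of 0.45. Of 15 heat-shock genes edgeR called 0, with 5 higher at an unadjusted p under 0.05, and Hspa1a, an inducible chaperone, had 77.8 and 525 CPM against 44.9 and 14.1 CPM (adjusted p = 0.0608, and 0.00476 by DESeq2).

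The treatment effect was then set against that of fibroblasts and C1q macrophages in the same libraries with an interaction term. Against fibroblasts, 8 of 7540 genes differed (0.106%), 2 higher in the endothelial cells (0.0265%) and 6 lower (0.0796%). Against macrophages, 24 of 10018 differed (0.24%), 5 higher (0.0499%) and 19 lower (0.19%). None of Esm1, Bst2, Irf7, Mt1 or the class I genes was among them. Esm1 was near 0 in both other classes, so its interaction had wide error (0.66 ± 1.22 SE against fibroblasts, adjusted p = 1). In endothelial cells Bst2 had a log2 fold change of 2.53, Irf7 2.86, H2-K1 1.70, H2-Q7 2.59 and H2-T23 2.57. The values of the same genes in the same libraries were 2.32, 2.43, 1.84, 3.19 and 2.13 in fibroblasts and 1.47, 2.04, 0.57, 2.13 and 1.58 in macrophages. The class I median was 1.46 over 16 tested genes in endothelial cells, 1.57 over 17 in fibroblasts and 0.99 over 19 in macrophages. That of the type I interferon list was 0.76 over 25 genes, 1.48 over 31 and 1.14 over 38, in the same order. These medians cover different sets of genes, so they do not compare the classes like for like.

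Among the differences that passed, Fabp4 had an effect 2.74 higher on the log2 scale in endothelial cells than in fibroblasts, and Igfbp3, an insulin-like growth factor binding protein with 2070 and 2948 CPM in TAK-981 against 3954 and 3533 CPM in vehicle endothelium, an effect 2.50 lower. Fabp4 did not rise in endothelial cells, and few fibroblasts carried it. Fibroblasts had 5 and 19 Fabp4 UMIs under TAK-981, from 3 of 40 and 9 of 67 cells. In vehicle they had 101 and 121, from 14 of 96 and 19 of 152 cells. The effects on Rsad2 and on Cxcl10, an interferon-induced chemokine, were lower in endothelial cells than in fibroblasts (interaction log2 -6.79 and -6.96), but without vehicle tumour 1 neither passed (-1.58 and -1.32). Ly6a had an effect 2.15 smaller than in macrophages, where its log2 fold change was 3.50. Col4a1 and Col4a2 also had lower effects than in macrophages (-1.41 and -1.77).

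**Figure D5:**
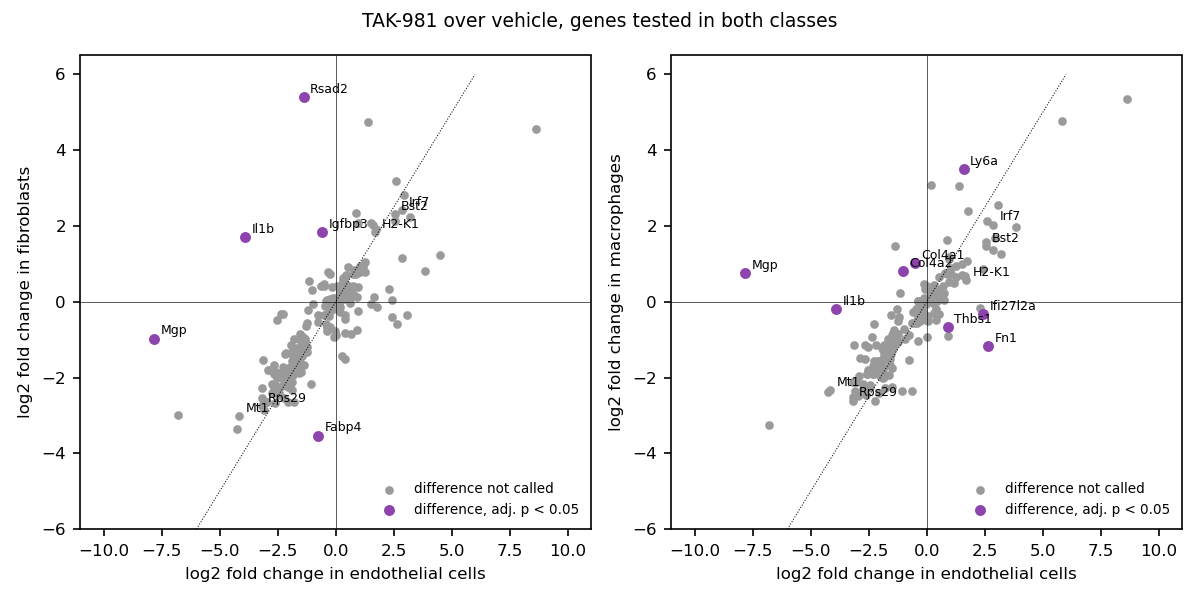
Log2 fold change (TAK-981 over vehicle) in endothelial cells on the horizontal axis against fibroblasts (left) and macrophages (right), for the named or called genes tested in both classes, with purple points where the interaction passed and a dotted line at equal effects. Only genes chosen for their endothelial values, lists or interactions are drawn, so the spread of points is no measure of likeness; Fabp4 and Il1b lie off the line in the left plot.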

How the data were processed

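Single-cell RNA was measured with 10x 3' v3.1 chemistry in 4 tumour libraries. The authors deposited UMI counts per gene and barcode, which came from Cell Ranger 6.1.2 on mm10 per the submitters' processing notes. Reads were not mapped again, and columns not used numbered 0. Barcodes below 500 UMIs or 250 genes, or above 20% mitochondrial UMIs, were dropped, so that 2255 and 3191 remained in the TAK-981 and 4576 and 4276 in the vehicle libraries. Doublets were not removed in the results given; an alternative removed the top Scrublet scores at 0.8% per 1000 barcodes (scanpy 1.11.5), which took 6 endothelial cells, all from vehicle tumour 1.

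Counts of the endothelial cells were summed per library and tested with edgeR 4.0.16 in R 4.3.3 (quasi-likelihood F test, low counts filtered, TMM, Benjamini-Hochberg over all genes tested). SE are those of the fit on the log2 scale. DESeq2 1.42.0 was an alternative. Where 1 library was left out, the lone sample of its group was assumed to vary like the other group. Interactions had library as a block. Fibroblasts and macrophages were barcodes defined by UMI limits of their own marker genes, 355 and 2680 in all, and epithelial barcodes numbered 5339. Sums were n = 2 mice per group. The p-values rest on the spread between these mice alone, with the spread of each gene drawn toward that of other genes (median prior degrees of freedom 9.59). The libraries of a group were checked for identity: chi-squared per degree of freedom was 2.36 for TAK-981 and 8.18 for vehicle endothelial sums, so they differed beyond sampling noise. Intervals are exact Clopper-Pearson at 95%, and floors are 3 counts over the group.

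The cells, gene lists and naming rule were chosen with earlier results of these data known. Named were up to 12 called genes per direction with mean log2 CPM of at least 5 and no overlap, the 4 highest and every called member of each list, the rule's own genes, genes of the drug's target enzyme, and up to 5 interactions per direction. Ly6a, Itm2b, Crip1, Nt5e and Psmb8, among others, were added after their values were seen. Some genes that the rule named are not reported here. Promoters came from RefSeq (GRCm38.p6). On simulated counts with 200 changed genes the test recovered 0% at 2-fold, 81.4% at 4-fold and 94.7% at 8-fold.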

Additional observations from a re-analysis of the deposited data

Results flagged for a closer look

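Each result here was singled out because the treatment effect in endothelial cells differed from that in fibroblasts or macrophages by the interaction test (edgeR, adjusted p under 0.05); values are endothelial effect minus the other class's effect on the log2 scale, and no explanation is weighed. Against fibroblasts the differences were 3.41 for Apln, 2.74 for Fabp4, -2.50 for Igfbp3, -5.32 for Il1b, -6.79 for Rsad2, -6.96 for Cxcl10 and -8.11 for Mgp. Fabp4, Igfbp3 and Il1b passed in all 7 alternatives tried, including the 4 that left out 1 library each. Apln lost the call when the sums of both classes were thinned to the same total and without vehicle tumour 1, Mgp without TAK-981 tumour 1, and Rsad2 and Cxcl10 without vehicle tumour 1. The fitted value of Mgp depends on counts of 0 in the TAK-981 endothelial cells and is no bound. That of Fabp4 rests on 5 and 19 UMIs in the TAK-981 fibroblasts, against 101 and 121 in the vehicle fibroblasts.

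Against macrophages the differences were 9.24 for Lrp1, 2.81 for Ifi27l2a, 2.70 for Fn1, 1.68 for Thbs1, -3.27 for Timp3, -3.83 for Il1b, -5.02 for Cxcl10 and -5.82 for G0s2. Each of these lost the call in at least 1 of the fits that left out 1 library. Timp3 also lost it with library totals alone and with both classes thinned to the same total. Over the 7 alternatives Timp3 ranged from -5.19 to -1.37, Ifi27l2a from 2.30 to 4.35 and Thbs1 from 1.18 to 2.31. Lrp1 rests on 6 and 1 UMIs under TAK-981 against 0 and 0 in vehicle endothelial cells, so its fitted size is no measure. Fn1 had 82.4 and 2791 CPM under TAK-981 against 175 and 264 CPM in vehicle, and 182 of 266 UMIs of TAK-981 tumour 2 came from 1 cell. Cxcl10 had 4.58 and 0 CPM under TAK-981 against 110 and 0 CPM in vehicle.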

How the results depend on the processing

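The settings tested different numbers of genes, and the full comparison called 19 higher and 106 lower of 4038 under TAK-981. The number higher was 46 of 4038 with library totals alone (36.2% of the calls in place of 15.2%) and 71 of 12886 with no filter on low counts. It was 29 of 2945 with at least 10 UMIs in at least 3 libraries and 129 of 5000 with at least 2 of the 8 endothelial genes per cell. With at least 1000 UMIs per barcode it was 12 of 3997, and without cells with fibroblast or pericyte RNA 10 of 3609. Sums thinned to the smallest total gave 10 of 1698, and leaving out transcripts under 800 nt gave 9 of 3831. The number lower was 191 of 12886 with no filter, 68 of 714 with each cell thinned to 1000 UMIs and 30 of 3831 without transcripts under 800 nt. At least 2 genes also moved the higher calls to 50.2% of all. Leaving out 1 library in turn gave 8 to 56 higher and 5 to 166 lower, the lowest without TAK-981 tumour 1, 22 to 34 differences from fibroblasts and 2 to 41 from macrophages, where library totals alone gave 14. DESeq2 called 13 and 91. The share difference was -2.28 points over barcodes with no Ptprc and at most 2 keratin UMIs, a smaller set in which all shares are higher. The ratio of the mean vehicle share to the mean TAK-981 share was smaller there, 1.71 against 2.25 over all kept barcodes. In that set vehicle tumour 1 stood at 3.83%, near TAK-981 tumour 1 at 3.34%, and vehicle tumour 2 at 7.16%. With 1 library left out, the difference over all kept barcodes was -1.29 to -0.560 points. Values that changed sign were the log2 fold change of Mgp, 1.66 with at least 2 genes per cell, the Cxcl10 effect in endothelial cells minus macrophages, 3.47 without vehicle tumour 1 (range with 1 library left out -10.4 to 3.47), and the Fn1 effect in endothelial cells minus macrophages, -0.109 without TAK-981 tumour 2 (range -0.109 to 4.46). The cause was not tested.

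Of 29 called named genes, 5 of 26 that could be tested passed without TAK-981 tumour 1, and 13 of 28 with at least 2 genes per cell. The class I median stayed between 0.93 and 1.95 over 21 settings and the type I interferon median between 0.28 and 2.33. Replicate numbers only name the mice: deviations of same-numbered libraries correlated at -0.0682 over 4038 genes. The replicate block gave 21 higher and 104 lower, 14 and 97 of them shared. With 37 TAK-981 cells, low genes and rare subtypes are limited by depth. The alternatives without Prox1 or Lyve1 cells, without short transcripts, without each library's deepest cell and with thinned cells were chosen after seeing the data.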
